A study of Mus musculus with 8 samples.

Results

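Toll-like receptors are the receptors with which dendritic cells (DCs) sense microbial products. The genes described here are 9 genes of mouse Toll-like receptors and Unc93b1, the chaperone of the endosomal ones, and they are 10 of the 19938 genes for which the array annotation names a probe set of 1 gene. They were chosen by name and not by their signals, and each of them had 1 such probe set. Tlr5 and Tlr11 had no probe set of 1 gene and could not be measured here. Tlr8, which is not among the 10 genes, lay above the filter on low signal in 1 array of 8 and was not tested in the main fit. In a limma fit without that filter none of its differences between the groups described below passed (adjusted p = 0.397, 0.495 and 0.869).

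The arrays compared pre-CD8 DCs (2 arrays), Zeb2low common DC progenitors (CDPs, 3 arrays) and Zeb2hi CDPs (3 arrays), sorted from bone marrow of mice heterozygous for a Zeb2-GFP fusion reporter. CDPs are marrow progenitors of DCs, and pre-CD8 DCs are precursors of the CD8+ DCs, also called cDC1, which present antigen to CD8+ T cells. All 3 groups carry the reporter allele, and no group without it was analysed. The labels name no sort markers beyond the names of the populations, and give no age or treatment of the mice.

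Toll-like receptors fall into those that sit on the cell surface, which mainly bind lipids and proteins of microbes, and those that meet nucleic acids or parasite proteins inside endosomes. Unc93b1 carries the endosomal receptors out of the endoplasmic reticulum, and without it they do not signal. In mature mouse DCs the repertoire differs between lineages: Tlr3, for double-stranded RNA, is a known gene of cDC1, Tlr7 and Tlr9 are best known from plasmacytoid DCs, and Tlr12 and Tlr11 together recognise profilin of Toxoplasma.

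Each array had a median signal between 4.91 and 5.14 on the log2 scale. A gene was tested if at least 2 arrays lay above their own 40th percentile, which fell between 4.31 and 4.62, and 13356 genes passed. The Zeb2 signal averaged 6.73 in pre-CD8 DCs, 7.68 in Zeb2low CDPs and 9.27 in Zeb2hi CDPs, and no array of one group overlapped another. Of the 10 cDC1 markers listed, 7 of the 9 tested were higher in pre-CD8 DCs than in Zeb2hi CDPs (6.51% of all genes tested). Among them were Clec9a (2.06 on the log2 scale, adjusted p = 0.00468) and Xcr1 (2.72, adjusted p = 0.0149). Xcr1 passed the level of the filter on only 2 arrays, the fewest that allow a test, and Itgae on 0. A gene that passes the filter only through the group where it is high had to be high there to be tested. The call of Xcr1, and with it the count of 7, may therefore not be independent of the filter. The signals of the pre-CD8 DC arrays correlated at r = 0.937 across genes, against 0.939 to 0.975 within Zeb2low CDPs and 0.971 to 0.989 within Zeb2hi CDPs. Each pre-CD8 DC array correlated more with some Zeb2low arrays than with the other array of its own group: array 2 at 0.942, 0.955 and 0.966 with the 3 Zeb2low arrays, and array 1 at 0.958 with Zeb2low array 2. Neutrophil markers differed both within and between groups. The sum of 10 such markers was 15.60 and 14.70 (log2) in pre-CD8 DC arrays 1 and 2, against 14.43, 15.38 and 14.92 in Zeb2low arrays 1, 2 and 3 and 13.79, 14.30 and 13.47 in Zeb2hi arrays 1, 2 and 3. Every pre-CD8 DC and Zeb2low array was thus above every Zeb2hi array. Of these 10 markers, 3 were called higher in pre-CD8 DCs than in Zeb2hi CDPs (6.51% of all genes, median difference 2.0). In Zeb2low against Zeb2hi CDPs 2 were called higher (4.5%, median 1.60). In both comparisons 0 were called lower (11.1% and 10.3% of all genes), though the lowest difference in Zeb2low against Zeb2hi CDPs was -1.06. In pre-CD8 DCs against Zeb2low CDPs 0 were called in either direction (0.337% of all genes higher and 0.217% lower). There, 0 also passed at an unadjusted p under 0.05 (limma, median 0.35). In their sum and medians these markers therefore differed from Zeb2hi CDPs in the same direction as the receptors called below, and their part in those results was not tested. Pre-CD8 DC array 1 and Zeb2low array 2 were the highest of their groups, and values without both are given for some of the results. Where no such value is given, a call may also have been lost in that fit. In that fit 0 neutrophil markers were called, with medians of 0.76 in pre-CD8 DCs against Zeb2hi CDPs and 1.16 in Zeb2low against Zeb2hi CDPs, and over all genes 3.47% were called higher and 5.48% lower in the first comparison and 3.35% and 7.46% in the second.

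The promoters of the 3 endosomal receptors whose rise over Zeb2hi CDPs passed the test in pre-CD8 DCs, Tlr3, Tlr9 and Tlr12, are shown because their signals moved together across the groups. Each sequence is RefSeq's, in build GRCm38.p6, from 250 bases before to 50 bases after the start of the gene, read 5′ to 3′ on the gene's own strand. Capitals mark matches to any of 5 short motifs searched on both strands: CACCTG (the E-box that ZEB proteins bind), GAAANNGAA (interferon regulatory factors), TGANTCA (AP-1), GAGGAAGT (PU.1) and TTANGTAA (NFIL3 and related bZIP factors). The Tlr3 promoter lies at chr8:45410331-45410630 on the minus strand, the Tlr9 promoter at chr9:106222348-106222647 on the plus strand and the Tlr12 promoter at chr4:128618570-128618869 on the minus strand.
Tlr3: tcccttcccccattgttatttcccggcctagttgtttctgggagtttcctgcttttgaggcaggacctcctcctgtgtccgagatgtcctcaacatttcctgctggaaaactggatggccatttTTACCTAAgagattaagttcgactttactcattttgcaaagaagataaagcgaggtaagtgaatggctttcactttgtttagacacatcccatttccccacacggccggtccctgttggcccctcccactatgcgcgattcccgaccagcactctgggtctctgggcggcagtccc
Tlr9: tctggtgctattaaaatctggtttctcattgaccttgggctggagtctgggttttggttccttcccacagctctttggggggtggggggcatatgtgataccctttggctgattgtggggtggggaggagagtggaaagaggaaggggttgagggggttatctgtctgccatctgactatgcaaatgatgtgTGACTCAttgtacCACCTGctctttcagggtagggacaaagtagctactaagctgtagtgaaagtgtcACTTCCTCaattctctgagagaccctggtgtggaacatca
Tlr12: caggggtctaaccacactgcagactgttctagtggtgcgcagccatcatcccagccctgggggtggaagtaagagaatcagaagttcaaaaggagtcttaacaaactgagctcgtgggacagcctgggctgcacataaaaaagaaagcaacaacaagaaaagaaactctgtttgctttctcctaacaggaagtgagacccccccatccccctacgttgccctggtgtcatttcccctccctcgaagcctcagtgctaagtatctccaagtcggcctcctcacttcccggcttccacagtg

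The Tlr3 window held 1 match, TTACCTAA, which is TTANGTAA on the reverse strand and begins 126 bases before the start. The Tlr9 window held TGACTCA from 58 bases and CACCTG from 45 bases before the start, and ACTTCCTC, which is GAGGAAGT on the reverse strand, 10 bases after it. None of the 5 motifs was found in the Tlr12 window, so no motif of the search was shared by these 3 promoters. Of 32851 promoters of the same length in the table, 20.2% held CACCTG, 8.56% GAAANNGAA, 7.81% TGANTCA, 3.2% GAGGAAGT and 2.32% TTANGTAA. Promoters of 7 of the 10 genes were in the table. Tlr2 and Tlr1 each held CACCTG, Tlr1 also held GAGGAAGT, Tlr6 held 2 overlapping matches to GAAANNGAA, and the Tlr13 window held none of the motifs. For Tlr1 and Tlr6 these matches are in 1 of 2 start sites in the table, and the window of the other start site of each held none. A match describes the letters of the window, not a bound site.

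Of the receptors that passed the filter, Tlr3, Tlr12 and Tlr9 were higher in pre-CD8 DCs than in Zeb2hi CDPs, and so was the surface receptor Tlr4. No Toll-like receptor gene was called lower in any of the 3 comparisons. Of the 10 genes, 9 passed the filter and Tlr7 did not. Tlr3, Tlr4 and Tlr13 passed through the arrays where they are high, so the counts below describe the 9 genes and do not stand for all 10. In pre-CD8 DCs against Zeb2hi CDPs 4 of 9 were higher, where 6.51% of all genes tested were called higher, and 0 were lower, where 11.1% were called lower (limma, 5 higher and 0 lower at an unadjusted p under 0.05). In Zeb2low against Zeb2hi CDPs 3 of 9 were higher (4.5% of all genes) and 0 lower (10.3%), with 4 and 1 at an unadjusted p under 0.05. In pre-CD8 DCs against Zeb2low CDPs 1 of 9 was higher (0.337%) and 0 lower (0.217%), with 5 and 0 at an unadjusted p under 0.05. The comparisons share their arrays, so these counts are not independent of each other.

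**Figure D1:**
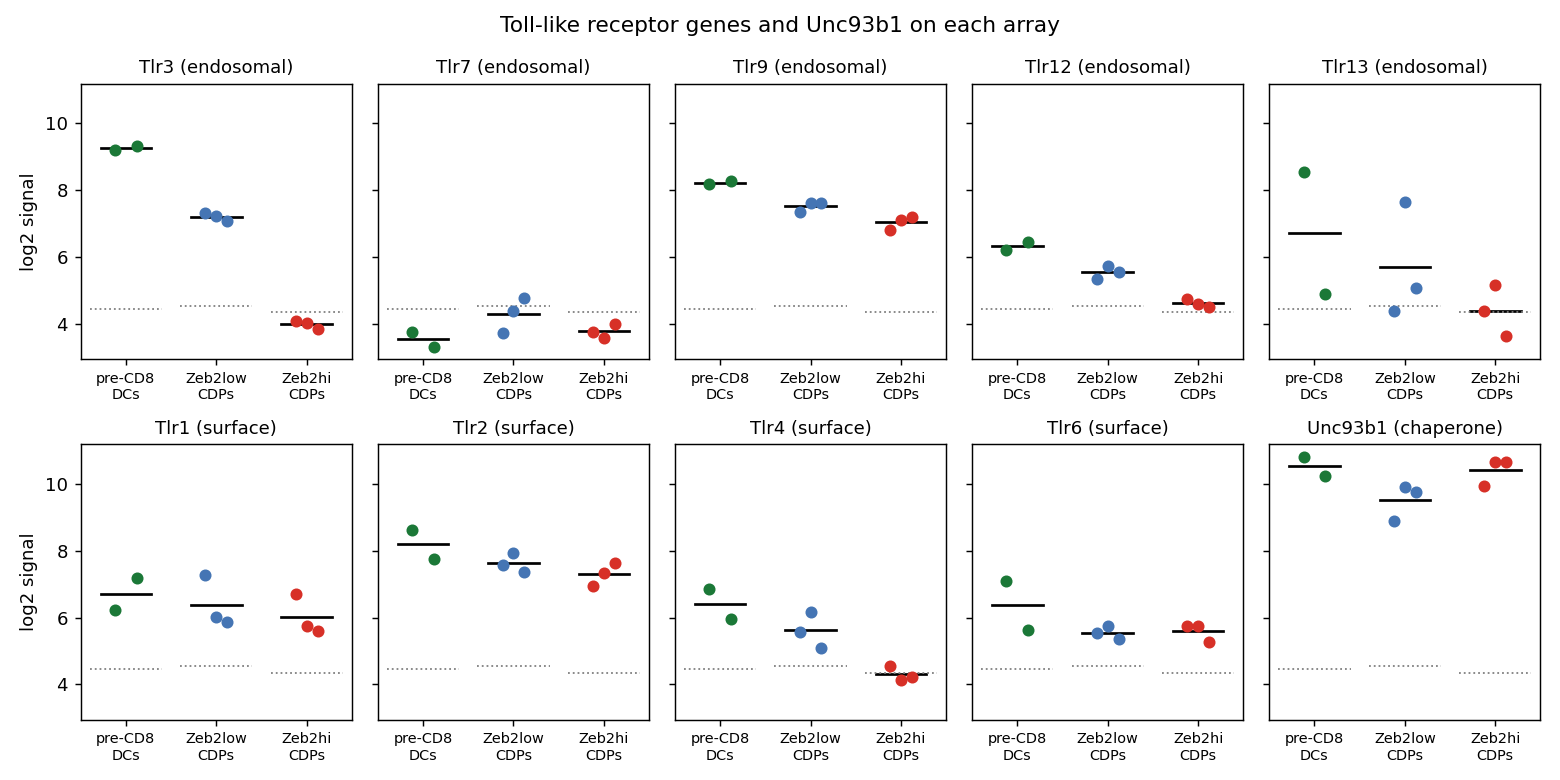
Log2 signal of each of the 10 genes by array, in 1 panel per gene, for pre-CD8 DCs (2 arrays), Zeb2low CDPs (3 arrays) and Zeb2hi CDPs (3 arrays). Points are arrays, horizontal bars group means and dotted lines the mean level of the filter in each group; Tlr3 averages 9.25 in pre-CD8 DCs, 7.20 in Zeb2low CDPs and 3.98 in Zeb2hi CDPs with little spread, while the Tlr13 arrays of a group lie far apart.

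Among the endosomal receptors, Tlr3 stood apart by the size of its difference. Its arrays spread little within each group, as did those of Tlr12. Tlr3 had a log2 signal of 9.19 and 9.31 in pre-CD8 DCs, against 7.30, 7.22 and 7.07 in Zeb2low CDPs and 4.08, 4.0 and 3.84 in Zeb2hi CDPs. The 3 groups formed 3 separate bands, and all Zeb2hi arrays lay under the level of the filter, at signals where an array with no detection call does not show expression. Tlr3 was 38.7-fold higher in pre-CD8 DCs than in Zeb2hi CDPs (5.28 ± 0.15 on the log2 scale, standard error; 95% interval 4.92 to 5.63, adjusted p = 1.61e-06 by limma). It was 9.31-fold higher in Zeb2low than in Zeb2hi CDPs (3.22 ± 0.14, interval 2.91 to 3.53, adjusted p = 2.23e-05), and 4.16-fold higher in pre-CD8 DCs than in Zeb2low CDPs (2.06 ± 0.15, interval 1.70 to 2.41, adjusted p = 0.00134). The folds against Zeb2hi CDPs may be understated. In bulk samples more cells that express a gene and more RNA per cell cannot be told apart.

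The summed signal of the cDC1 markers moved in the same direction as Tlr3. Their summed log2 signal, over 10 of 10 genes, was 13.27 and 13.04 in pre-CD8 DCs, against 12.51, 12.48 and 12.45 in Zeb2low CDPs and 11.90, 12 and 11.86 in Zeb2hi CDPs. Of 9 tested, 7 were higher in pre-CD8 DCs than in Zeb2hi CDPs (6.51% of all genes), among them Xcr1 with the limit given above. In Zeb2low against Zeb2hi CDPs 4 were higher (4.5%), and in pre-CD8 DCs against Zeb2low CDPs 2 (0.337%). In these comparisons 0 were called lower (11.1%, 10.3% and 0.217% of all genes), and the lowest differences were 0.05, -0.59 and 0.04. Their part in the Tlr3 result was not tested. Left without pre-CD8 DC array 1 and Zeb2low array 2, Tlr3 differed by 5.33, 3.21 and 2.13 in pre-CD8 DCs against Zeb2hi CDPs, Zeb2low against Zeb2hi CDPs and pre-CD8 DCs against Zeb2low CDPs, with adjusted p of 0.000162, 0.00108 and 0.0406.

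The 5 genes whose signal over the 8 arrays was most like that of Tlr3, by the root mean square of the difference after each gene's mean was subtracted, were Anpep (0.325), Shtn1 (0.326), H2-Ab1 (0.371), P2ry10 (0.430) and H2-Eb1 (0.529), out of 13355 genes. Anpep encodes aminopeptidase N (CD13), and H2-Ab1 and H2-Eb1 encode chains of MHC class II molecules. H2-Ab1, for example, averaged 12.09 in pre-CD8 DCs, 9.97 in Zeb2low CDPs and 6.22 in Zeb2hi CDPs. This likeness is a description over 8 arrays and carries no test.

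**Figure D2:**
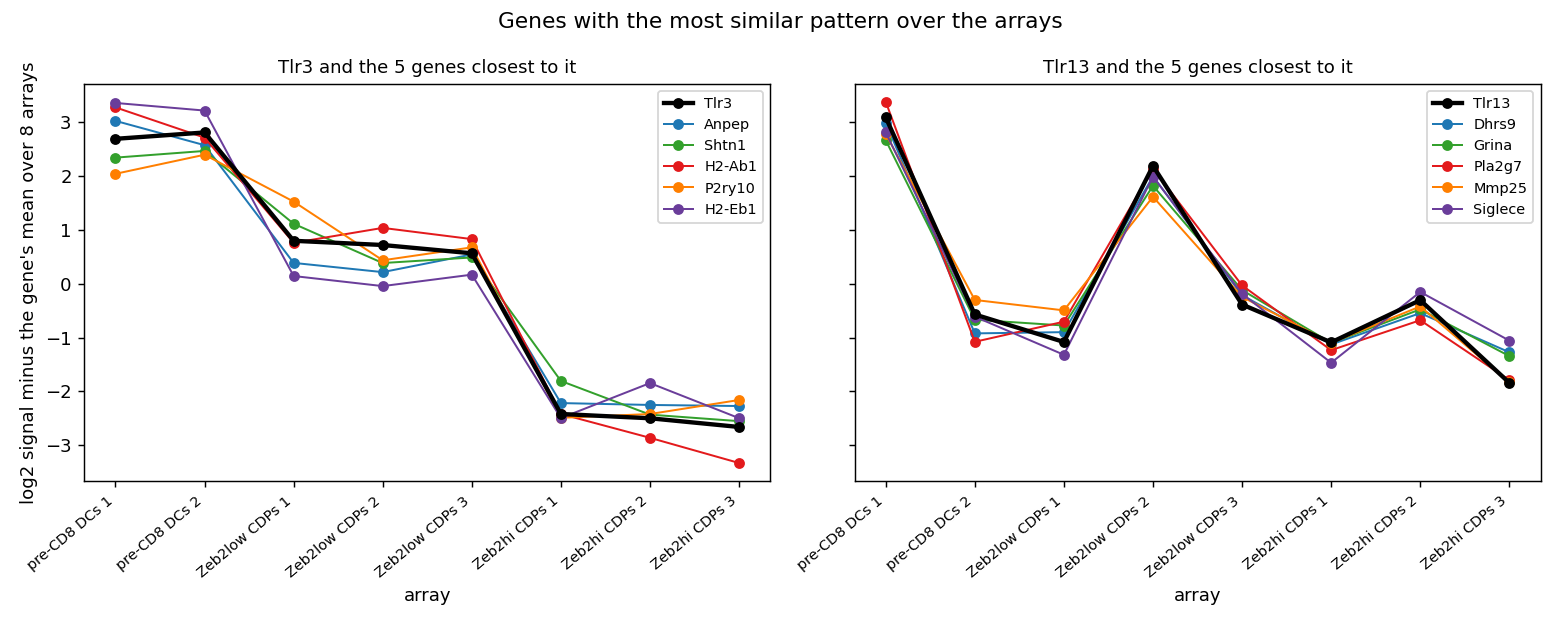
Log2 signal minus each gene's own mean over the 8 arrays, for Tlr3 with the 5 genes most like it and for Tlr13 with the 5 genes most like it; the arrays run from pre-CD8 DCs through Zeb2low CDPs to Zeb2hi CDPs. The Tlr3 curves step down group by group, and the Tlr13 curves peak at pre-CD8 DC array 1 and Zeb2low array 2.

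Tlr12 had a smaller and equally ordered difference. Tlr12 had a log2 signal of 6.19 and 6.46 in pre-CD8 DCs, against 5.32, 5.72 and 5.54 in Zeb2low CDPs and 4.73, 4.59 and 4.51 in Zeb2hi CDPs. The arrays of the 3 groups did not overlap. Tlr12 was 3.28-fold higher in pre-CD8 DCs than in Zeb2hi CDPs (1.71 ± 0.18, interval 1.31 to 2.12, adjusted p = 0.000765) and 1.89-fold higher in Zeb2low than in Zeb2hi CDPs (0.92 ± 0.16, interval 0.56 to 1.28, adjusted p = 0.0089). The Zeb2hi arrays lay little above their filter levels of 4.40, 4.31 and 4.33, so the size of these differences depends on the low end of the scale. With a pseudocount of 16 they were 1.25 (adjusted p = 0.00127) and 0.62 (adjusted p = 0.0143). Between pre-CD8 DCs and Zeb2low CDPs the difference of 0.79 ± 0.18 did not pass (interval 0.39 to 1.19, adjusted p = 0.105).

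Tlr9, the receptor for unmethylated CpG DNA, was measured in all 3 groups well above the level of the filter. Tlr9 had a log2 signal of 8.17 and 8.27 in pre-CD8 DCs, against 7.33, 7.62 and 7.60 in Zeb2low CDPs and 6.81, 7.10 and 7.20 in Zeb2hi CDPs. The order of the groups was that of Tlr3 and Tlr12, again without overlap. Tlr9 was 2.26-fold higher in pre-CD8 DCs than in Zeb2hi CDPs (1.18 ± 0.18, interval 0.78 to 1.58, adjusted p = 0.00349). Neither smaller step passed: Zeb2low against Zeb2hi CDPs gave 0.48 ± 0.16 (adjusted p = 0.0747) and pre-CD8 DCs against Zeb2low CDPs 0.70 ± 0.18 (adjusted p = 0.146). The first of these passed in 3 of 20 alternatives. These were quantile normalization (0.63, adjusted p = 0.0244), array weights (0.46, adjusted p = 0.0183) and the replicate number as a block in the 6 CDP arrays (adjusted p = 0.0274). Over all genes, array weights called 1798 higher and 2669 lower there and that block 1536 and 2534, against 601 and 1377 in the main fit. Without both arrays highest in neutrophil markers the difference was 0.42. Plasmacytoid DCs are known for Tlr9. The log2 of the summed signal of their markers, over the 9 of 10 measured, was 10.27 and 10.48 in pre-CD8 DCs, against 10.32, 10.97 and 10.99 in Zeb2low CDPs and 10.77, 10.92 and 10.83 in Zeb2hi CDPs. Taken one by one, 2 of 8 tested were higher (6.51% of all genes) and 1 lower (11.1%) in pre-CD8 DCs than in Zeb2hi CDPs (median 0.49). In Zeb2low against Zeb2hi CDPs 5 were higher (4.5%) and 0 lower (10.3%), with a median of 0.87. In pre-CD8 DCs against Zeb2low CDPs 0 were higher (0.337%) and 1 lower (0.217%), with a median of -0.36. Their part in the Tlr9 differences was not tested.

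Tlr7, the receptor for single-stranded RNA, did not pass the filter. Tlr7 had a log2 signal of 3.75 and 3.31 in pre-CD8 DCs, against 3.73, 4.37 and 4.76 in Zeb2low CDPs and 3.75, 3.56 and 3.98 in Zeb2hi CDPs. It exceeded the level of the filter on 1 array, Zeb2low array 3. A limma fit of all 19938 genes without a filter was also run. There Tlr7 differed by -0.23 in pre-CD8 DCs against Zeb2hi CDPs (adjusted p = 0.683). It differed by 0.52 in Zeb2low against Zeb2hi CDPs (adjusted p = 0.223). In pre-CD8 DCs against Zeb2low CDPs it differed by -0.75 (adjusted p = 0.389, unadjusted p = 0.0287). None passed.

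Tlr13, which senses bacterial ribosomal RNA in mice, varied more between the arrays of pre-CD8 DCs and of Zeb2low CDPs than between the means of the groups. Tlr13 had a log2 signal of 8.55 and 4.89 in pre-CD8 DCs, against 4.38, 7.65 and 5.08 in Zeb2low CDPs and 4.37, 5.16 and 3.62 in Zeb2hi CDPs. A single array was high in pre-CD8 DCs and a single one in Zeb2low CDPs, and the groups overlapped. The differences were 2.34 ± 1.15 in pre-CD8 DCs against Zeb2hi CDPs (interval -0.28 to 4.95, adjusted p = 0.204), 1.32 ± 1.03 in Zeb2low against Zeb2hi CDPs (interval -1.02 to 3.66, adjusted p = 0.391) and 1.02 ± 1.15 in pre-CD8 DCs against Zeb2low CDPs (interval -1.60 to 3.63, adjusted p = 0.739). None passed. The Zeb2low against Zeb2hi difference passed with the replicate block in the CDP arrays alone (adjusted p = 0.0487), and that of pre-CD8 DCs against Zeb2hi CDPs passed without pre-CD8 DC array 2 (4.17, adjusted p = 0.0434).

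The high Tlr13 arrays were those with the highest summed neutrophil markers in their groups. Without pre-CD8 DC array 1 and Zeb2low array 2 the Tlr13 differences were 0.51, 0.34 and 0.16 in the same order of comparisons. These arrays also hold the highest Tlr13 signals, so smaller differences from Zeb2hi CDPs follow from leaving them out, whatever their neutrophil markers. The genes most like Tlr13 over the arrays were Dhrs9 (0.278), Grina (0.309), Pla2g7 (0.311), Mmp25 (0.330) and Siglece (0.353). Mmp25 encodes a matrix metalloproteinase known from neutrophils, and Siglece an inhibitory lectin of neutrophils and macrophages. Dhrs9, Grina and Pla2g7 are not assigned to a cell type here. The part of the neutrophil markers in the Tlr13 signal was not tested.

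**Figure D3:**
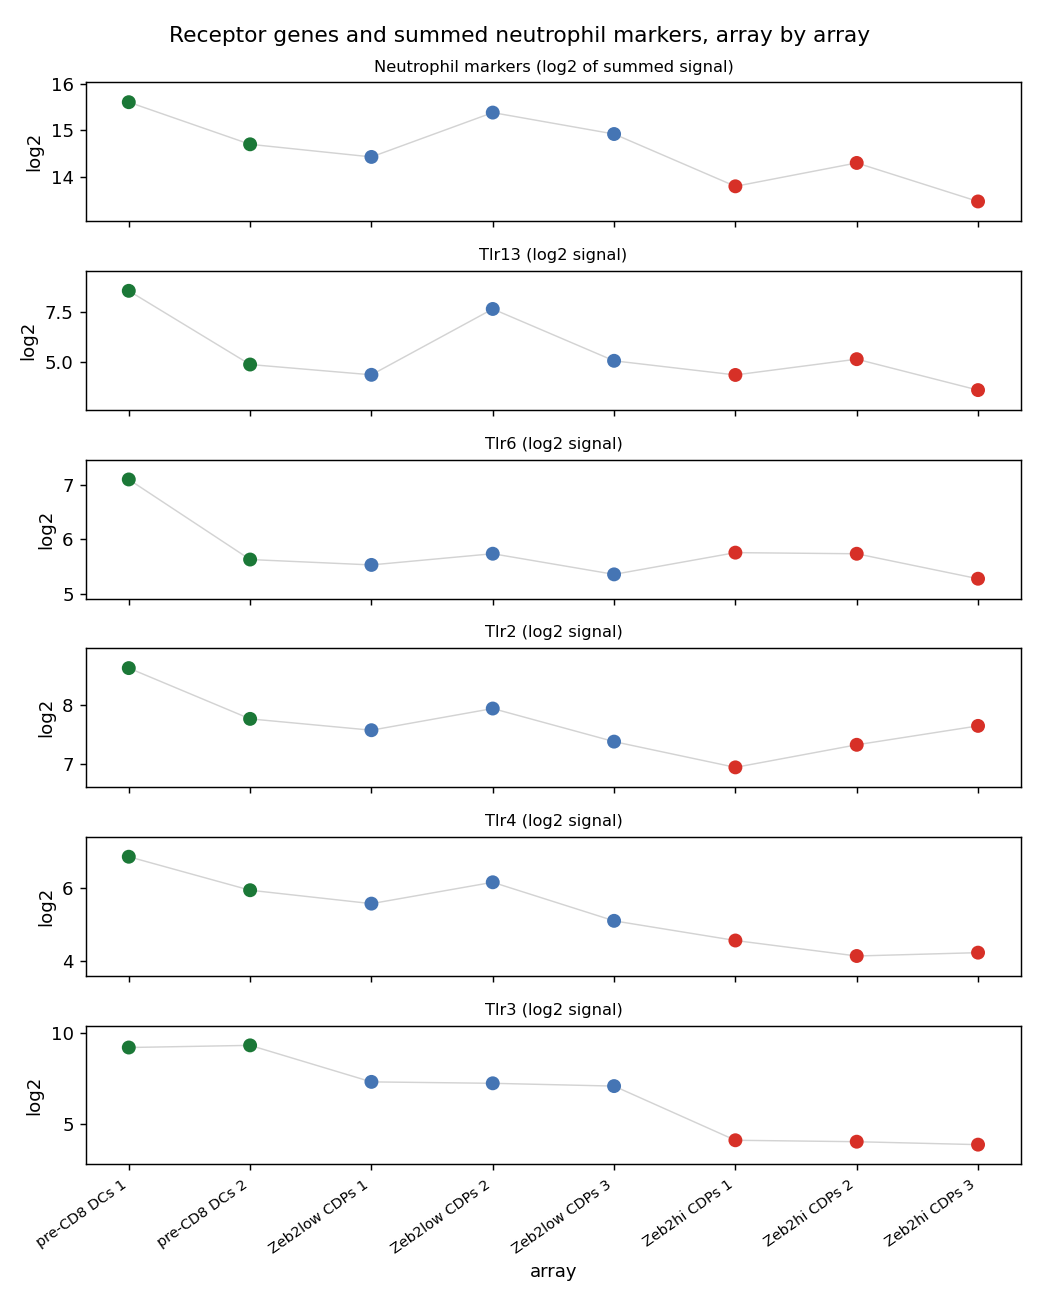
Summed neutrophil marker signal and the log2 signals of receptors, array by array, for pre-CD8 DCs, Zeb2low CDPs and Zeb2hi CDPs; each panel has its own y scale, in log2 units. Pre-CD8 DC array 1 and Zeb2low array 2 carry the highest marker sums of their groups (15.60 and 15.38) and the highest Tlr13 signals (8.55 and 7.65), while Tlr3 varies little within any group.

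The surface receptors bind bacterial and fungal ligands: Tlr2 pairs with Tlr1 or Tlr6 for lipopeptides, and Tlr4 binds lipopolysaccharide. Tlr4 was the only one of the 4 with a called difference. Tlr4 had a log2 signal of 6.87 and 5.95 in pre-CD8 DCs, against 5.58, 6.16 and 5.10 in Zeb2low CDPs and 4.56, 4.13 and 4.22 in Zeb2hi CDPs. The Zeb2hi arrays were lowest and did not overlap either of the other groups, while pre-CD8 DCs and Zeb2low CDPs overlapped, and 1 Zeb2hi array exceeded the level of the filter. With 2 of 3 Zeb2hi arrays under that level, the size of the Tlr4 differences depends on the low end of the scale.

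Tlr4 was 4.29-fold higher in pre-CD8 DCs than in Zeb2hi CDPs (2.10 ± 0.35, interval 1.31 to 2.89, adjusted p = 0.00538) and 2.48-fold higher in Zeb2low than in Zeb2hi CDPs (1.31 ± 0.31, interval 0.60 to 2.02, adjusted p = 0.0262). The Zeb2low call was lost with Zeb2low array 1 (adjusted p = 0.0541), Zeb2low array 2 (0.0712), Zeb2hi array 2 (0.103) or Zeb2hi array 3 (0.0962) left out. With a pseudocount of 16 the difference was 0.87 (adjusted p = 0.0539) there, and 1.5 (adjusted p = 0.0104) in pre-CD8 DCs against Zeb2hi CDPs. Between pre-CD8 DCs and Zeb2low CDPs the difference of 0.79 ± 0.35 did not pass (adjusted p = 0.378). Without the arrays highest in neutrophil markers, Tlr4 differed by 1.64 in pre-CD8 DCs against Zeb2hi CDPs (0.0174 after adjustment) and by 1.03 in Zeb2low against Zeb2hi CDPs (0.0313). Neutrophils, monocytes and macrophages are all known to express Tlr4. The sum and medians of the neutrophil markers differed from Zeb2hi CDPs in the same direction as Tlr4, as given above. The summed log2 signal of the 8 of 10 monocyte and macrophage markers measured was 10.85 and 10.64 in pre-CD8 DCs, against 11.15, 10.97 and 10.83 in Zeb2low CDPs and 11.95, 11.64 and 11.60 in Zeb2hi CDPs. Taken one by one, 0 of 7 tested were higher (6.51% of all genes) and 3 lower (11.1%) in pre-CD8 DCs than in Zeb2hi CDPs (median -0.21). In Zeb2low against Zeb2hi CDPs 0 were higher (4.5%) and 1 lower (10.3%), with a median of 0.08. The part of either marker list in the Tlr4 result was not tested.

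Tlr2 was measured well above the filter level everywhere, with smaller differences. Tlr2 had a log2 signal of 8.62 and 7.76 in pre-CD8 DCs, against 7.57, 7.94 and 7.38 in Zeb2low CDPs and 6.94, 7.32 and 7.64 in Zeb2hi CDPs. Both pre-CD8 DC arrays lay above every Zeb2hi array, and all else overlapped. The differences were 0.89 ± 0.30 in pre-CD8 DCs against Zeb2hi CDPs (interval 0.20 to 1.58, adjusted p = 0.0767), 0.33 ± 0.27 in Zeb2low against Zeb2hi CDPs (adjusted p = 0.419) and, for pre-CD8 DCs against Zeb2low CDPs, 0.57 ± 0.30 (adjusted p = 0.456). The first passed without pre-CD8 DC array 2 (1.32, adjusted p = 0.0305), and was 0.46 without the arrays highest in neutrophil markers.

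Tlr1 and Tlr6, the partners of Tlr2, did not separate the groups. Tlr1 had a log2 signal of 6.23 and 7.19 in pre-CD8 DCs, against 7.27, 6.01 and 5.87 in Zeb2low CDPs and 6.70, 5.75 and 5.61 in Zeb2hi CDPs. Tlr6 had 7.11 and 5.63 in pre-CD8 DCs, against 5.53, 5.74 and 5.35 in Zeb2low CDPs and 5.76, 5.73 and 5.27 in Zeb2hi CDPs. For Tlr1 array 1 was highest in both CDP groups and array 2 in pre-CD8 DCs, and for Tlr6 a single array, pre-CD8 DC array 1, stood above the rest. Tlr1 differed by 0.69 ± 0.49 in pre-CD8 DCs against Zeb2hi CDPs (adjusted p = 0.379) and by 0.36 ± 0.44 in Zeb2low against Zeb2hi CDPs (interval -0.63 to 1.36, adjusted p = 0.581). Tlr6 differed by 0.78 ± 0.38 in pre-CD8 DCs against Zeb2hi CDPs (adjusted p = 0.197) and by -0.05 ± 0.34 in Zeb2low against Zeb2hi CDPs (interval -0.81 to 0.72, adjusted p = 0.931). Without pre-CD8 DC array 2, Tlr6 passed against Zeb2hi CDPs (1.52, adjusted p = 0.0108) and against Zeb2low CDPs (1.57, adjusted p = 0.0438). Without pre-CD8 DC array 1 and Zeb2low array 2, it differed by 0.04 in pre-CD8 DCs against Zeb2hi CDPs.

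The group means of Unc93b1 were not ordered as those of Tlr3, Tlr9 and Tlr12, though its mean was also higher in pre-CD8 DCs than in Zeb2low CDPs. Unc93b1 had a log2 signal of 10.81 and 10.25 in pre-CD8 DCs, against 8.89, 9.90 and 9.74 in Zeb2low CDPs and 9.94, 10.67 and 10.65 in Zeb2hi CDPs. Zeb2low CDPs were lowest, without overlap with either of the other groups, and pre-CD8 DCs overlapped Zeb2hi CDPs. It differed by 0.11 ± 0.35 between pre-CD8 DCs and Zeb2hi CDPs (interval -0.68 to 0.90, adjusted p = 0.86), by -0.91 ± 0.31 between Zeb2low and Zeb2hi CDPs (interval -1.61 to -0.20, adjusted p = 0.0824) and by 1.02 ± 0.35 between pre-CD8 DCs and Zeb2low CDPs (interval 0.23 to 1.81, adjusted p = 0.267). None passed. In the fit with replicate numbers as a block in the CDP arrays alone the second did (adjusted p = 0.00357), as it did with array weights (-0.88, adjusted p = 0.0104) and without Zeb2hi array 1 (-1.15, adjusted p = 0.0496).

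**Figure D4:**
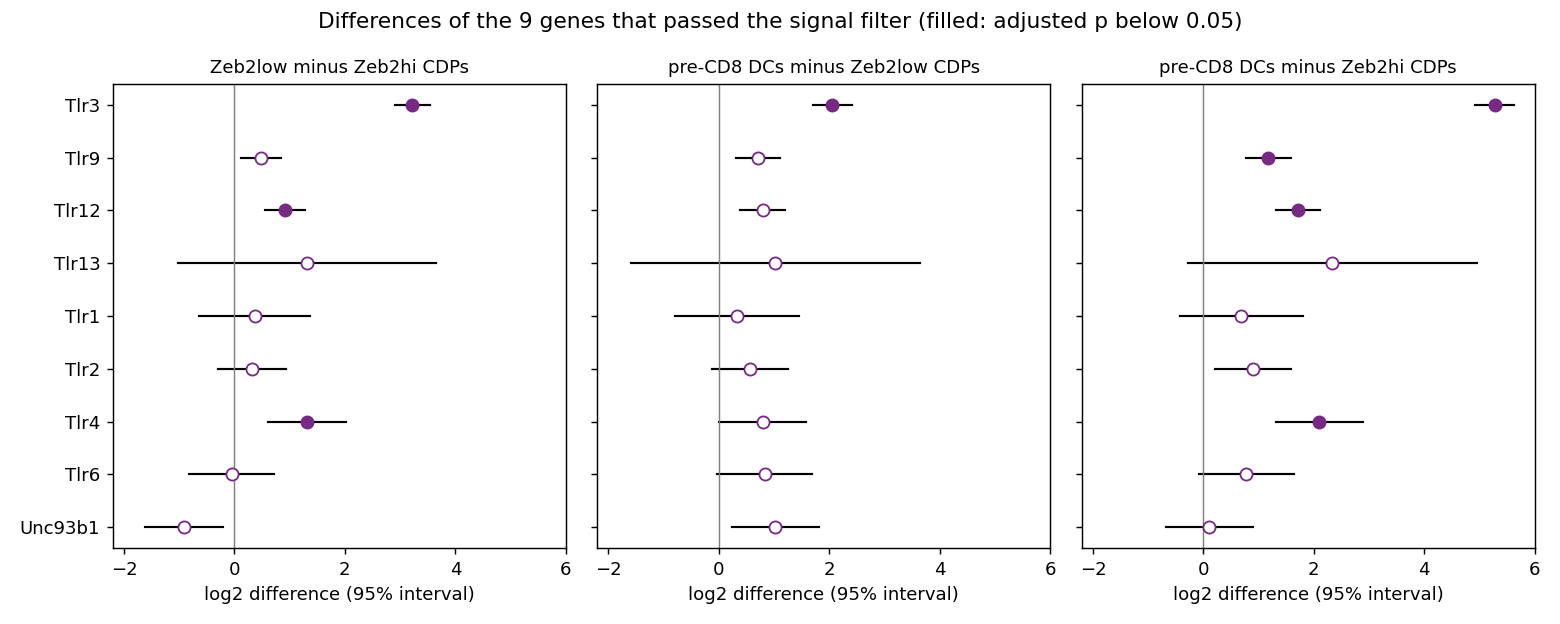
Log2 differences with 95% intervals for the 9 tested genes, in Zeb2low against Zeb2hi CDPs, pre-CD8 DCs against Zeb2low CDPs and pre-CD8 DCs against Zeb2hi CDPs (panels from left to right); filled points passed the adjusted test. Tlr3 lies to the right of all others in each comparison, and Tlr13 has the widest intervals.

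Set side by side, the 4 endosomal receptors tested had median differences of 2.03, 1.12 and 0.91 on the log2 scale in pre-CD8 DCs against Zeb2hi CDPs, Zeb2low against Zeb2hi CDPs and pre-CD8 DCs against Zeb2low CDPs. The 4 surface receptors had medians of 0.84, 0.35 and 0.68, and the medians of all genes were -0.02, 0.03 and -0.03. Of the endosomal receptors 3, 2 and 1 were called higher, and of the surface receptors 1, 1 and 0 (6.51%, 4.5% and 0.337% of all genes). In both classes 0 were called lower in each comparison (11.1%, 10.3% and 0.217% of all genes). At an unadjusted p under 0.05 (limma), 3, 3 and 3 endosomal and 2, 1 and 1 surface receptors were higher. The endosomal medians leave out Tlr7, which did not pass the filter. In the fit without a filter Tlr7 differed by -0.23, 0.52 and -0.75 in the same order of comparisons. Tlr3, Tlr13 and the surface receptor Tlr4 passed the filter through the arrays where they are high. The endosomal medians also rest partly on Tlr13 and so on single arrays. Without Zeb2low array 2, the medians were 0.62 for endosomal and 0.36 for surface receptors in Zeb2low against Zeb2hi CDPs, and 1.44 and 0.82 in pre-CD8 DCs against Zeb2low CDPs. Without Zeb2low array 1 the surface median in Zeb2low against Zeb2hi CDPs was 0.16, and without Zeb2low array 3 it was 0.54. Without pre-CD8 DC array 2 the surface median was 1.42 in pre-CD8 DCs against Zeb2hi CDPs and 1.13 in pre-CD8 DCs against Zeb2low CDPs, where it was 0.23 without array 1. Without both arrays highest in neutrophil markers the endosomal and surface medians were 1.54 and 0.82 in pre-CD8 DCs against Zeb2hi CDPs, 0.62 and 0.36 in Zeb2low against Zeb2hi CDPs, and 0.91 and 0.45 in pre-CD8 DCs against Zeb2low CDPs. The difference between endosomal and surface receptors was not tested. Arrays did not overlap for 5 of 9 genes in pre-CD8 DCs above Zeb2hi CDPs (21.4% of all genes), for 4 of 9 in Zeb2low above Zeb2hi CDPs (20.2%) and for 4 of 9 in pre-CD8 DCs above Zeb2low CDPs (12.4%). Unc93b1 was the 1 gene whose Zeb2low arrays lay wholly below the Zeb2hi arrays (21.5% of all genes). In the other direction 0 genes did so for pre-CD8 DCs below Zeb2hi CDPs (27.1%) or Zeb2low CDPs (15.4%).

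Of 20 tested co-receptors and factors that fold and transport these receptors, 3 were higher (6.51% of all genes) and 2 lower (11.1%) in pre-CD8 DCs than in Zeb2hi CDPs (median 0.04). In Zeb2low against Zeb2hi CDPs 2 were higher (4.5% of all genes) and 4 lower (10.3%), with a median of -0.35. In pre-CD8 DCs against Zeb2low CDPs 1 was higher (0.337%) and 0 lower (0.217%; limma, 5 and 1 at an unadjusted p under 0.05; median 0.31). In the fit with replicate numbers as a block in the CDP arrays alone, in which 11.5% of all genes were higher and 19% lower in Zeb2low than in Zeb2hi CDPs, 2 were higher and 7 lower. Cnpy4, which is known to control the surface expression of receptors of this family, fell in both comparisons with Zeb2hi CDPs: it had a log2 signal of 5.75 and 5.52 in pre-CD8 DCs, against 5.51, 5.74 and 5.53 in Zeb2low CDPs and 7.06, 7.19 and 7.47 in Zeb2hi CDPs. The Zeb2hi arrays stood alone above the rest. Cnpy4 differed by -1.61 ± 0.18 in pre-CD8 DCs against Zeb2hi CDPs (adjusted p = 0.00101) and by -1.64 ± 0.16 in Zeb2low against Zeb2hi CDPs (adjusted p = 0.00106).

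Cd180 and Ly86 encode the partners of one surface complex related to Tlr4 and its co-receptor, and they moved in opposite directions. Ly86 fell by 0.96 ± 0.17 in Zeb2low against Zeb2hi CDPs (adjusted p = 0.00904, and 0.0725 with quantile normalization). Cd180 rose by 1.38 ± 0.27 in pre-CD8 DCs (adjusted p = 0.0108, and 0.0569 without pre-CD8 DC array 2) and by 1.09 ± 0.24 in Zeb2low CDPs, each against Zeb2hi CDPs (adjusted p = 0.0213). The Zeb2low call for Cd180 was lost without Zeb2low array 1 (0.05) or 3 (0.0541) or Zeb2hi array 2 (0.0901) or 3 (0.0893).

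Cd36, a scavenger receptor that works with Tlr2 and Tlr6, passed the filter through the 2 pre-CD8 DC arrays, so that it had to be high there to be tested. It rose by 2.69 ± 0.35 in pre-CD8 DCs against Zeb2hi CDPs (adjusted p = 0.00209). Its log2 signal was 5.95 and 4.57 in pre-CD8 DCs, against 2.89, 2.88 and 3.19 in Zeb2low CDPs and 2.80, 2.39 and 2.52 in Zeb2hi CDPs, so that all CDP arrays lay at the low end of the scale. Cd36 was also the 1 gene of this list called in pre-CD8 DCs against Zeb2low CDPs (2.27 ± 0.35, adjusted p = 0.0334), and that call was kept in only 1 of 8 fits with an array left out, the one without pre-CD8 DC array 2, with adjusted p up to 0.111 in the others. Without the arrays highest in neutrophil markers its differences were 2.0 against Zeb2hi CDPs (adjusted p = 0.00677) and 1.53 against Zeb2low CDPs (adjusted p = 0.149). Slc15a3, an endolysosomal transporter, rose by 2.27 ± 0.53 in pre-CD8 DCs (adjusted p = 0.0201) and by 1.96 ± 0.47 in Zeb2low CDPs (adjusted p = 0.0268), each against Zeb2hi CDPs. Its highest signals, 8.55 and 8.53, were on pre-CD8 DC array 1 and Zeb2low array 2, and without both arrays it differed by 1.58 (adjusted p = 0.0279) and 1.47 (adjusted p = 0.0176). With the replicate block over all arrays the Zeb2low value was 0.055. The pre-CD8 call was lost without pre-CD8 DC array 1 (0.127), Zeb2hi array 1 (0.0528) or Zeb2hi array 3 (0.0621), and the Zeb2low call without Zeb2low array 2 (0.0599) or Zeb2hi array 1 (0.0669), 2 (0.066) or 3 (0.0936).

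The remaining calls of this list were lower. Ctsb, the protease cathepsin B, fell by 0.99 ± 0.23 in Zeb2low against Zeb2hi CDPs (adjusted p = 0.0238). It was lost without Zeb2low array 2 (0.0533) or Zeb2hi array 2 (0.0989) or 3 (0.0938). Hsp90b1, the chaperone gp96 that folds Toll-like receptors, is named after its values were seen. It fell by 0.62 ± 0.15 in the same comparison (adjusted p = 0.0275, and 0.0824 without both arrays highest in neutrophil markers). That call held without Zeb2low array 1 and without either pre-CD8 DC array, but not without any other array (adjusted p 0.0616 to 0.09) or with quantile normalization (0.478). Hmgb1, a nuclear protein that carries nucleic acids to the receptors when released, fell by 1.19 ± 0.25 in pre-CD8 DCs against Zeb2hi CDPs (adjusted p = 0.0148), and was lost without pre-CD8 DC array 1 (0.0596) or 2 (0.0569).

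**Figure D5:**
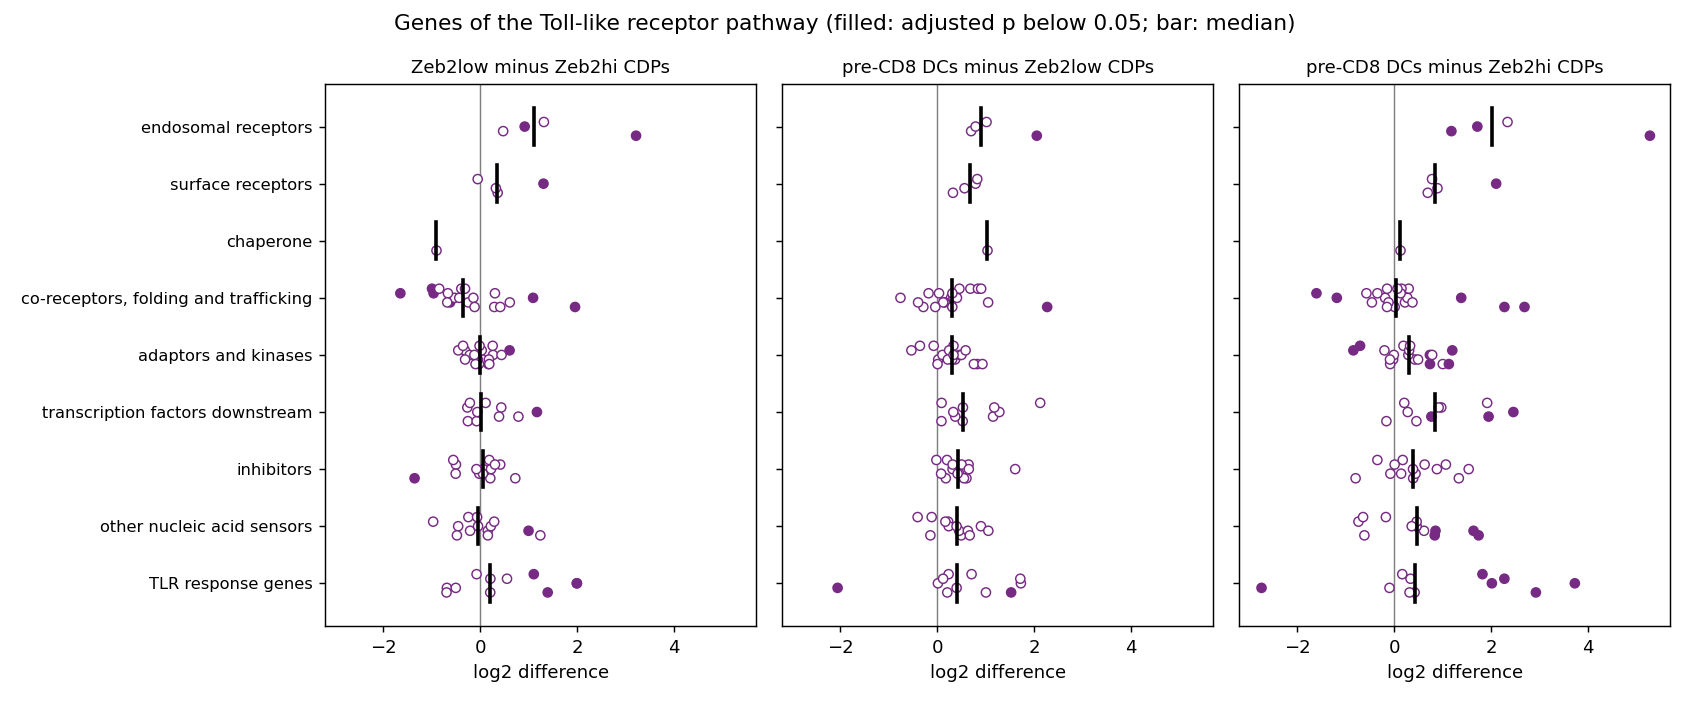
Log2 differences of the tested genes of the pathway lists in Zeb2low against Zeb2hi CDPs, pre-CD8 DCs against Zeb2low CDPs and pre-CD8 DCs against Zeb2hi CDPs (panels from left to right), 1 point per gene, filled where the adjusted test was passed, with a bar at each list's median. Genes of the co-receptor, folding and trafficking list lie on both sides of 0, and the downstream transcription factors called in pre-CD8 DCs against Zeb2hi CDPs lie above it.

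Of 19 adaptors and kinases tested, 4 were higher (6.51% of all genes) and 2 lower (11.1%) in pre-CD8 DCs than in Zeb2hi CDPs (median 0.31), and 1 was higher and 1 lower there without both arrays highest in neutrophil markers. In Zeb2low against Zeb2hi CDPs 1 was higher (4.5%) and 0 lower (10.3%; limma, 1 and 2 at an unadjusted p under 0.05; median -0.01), with 1 and 1 under the block in the CDP arrays alone. Between pre-CD8 DCs and Zeb2low CDPs 0 were called (0.337% of all genes higher and 0.217% lower; 3 and 1 at an unadjusted p under 0.05; median 0.31). Map3k8, the kinase Tpl2, was higher by 1.2 ± 0.17 in pre-CD8 DCs than in Zeb2hi CDPs (adjusted p = 0.00291), a call kept with each array left out in turn. Its log2 signal was 6.66 and 6.91 in pre-CD8 DCs, against 6.02, 6.27 and 6.29 in Zeb2low CDPs and 5.76, 5.47 and 5.52 in Zeb2hi CDPs. Map3k8 was also the gene called in Zeb2low against Zeb2hi CDPs (0.61 ± 0.15, adjusted p = 0.0315), which was lost without Zeb2low array 2 (0.0959) or 3 (0.0964), Zeb2hi array 2 (0.129) or 3 (0.118), and with the replicate block over all arrays (0.0691). Without both arrays highest in neutrophil markers Map3k8 differed there by 0.57 (adjusted p = 0.0839).

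The other 5 calls in pre-CD8 DCs against Zeb2hi CDPs depended on single arrays. Pik3ap1, the adaptor BCAP, was higher by 1.13 ± 0.25 (adjusted p = 0.0171), and was lost without pre-CD8 DC array 1 (0.107) or Zeb2hi array 2 (0.0599), and without both arrays highest in neutrophil markers (0.86, adjusted p = 0.126). Ticam2, the adaptor TRAM of Tlr4, fell by 0.84 ± 0.18 (adjusted p = 0.0157), which was lost without pre-CD8 DC array 1 (0.0559) or 2 (0.06), Zeb2hi array 2 (0.0545) or 3 (0.0611). Ikbke, a kinase upstream of interferon regulatory factors, fell by 0.71 ± 0.16 (adjusted p = 0.0204), which was lost without pre-CD8 DC array 2 (0.0979), Zeb2hi array 2 (0.0563) or 3 (0.0778). Irak2, a kinase downstream of Myd88, was higher by 0.74 ± 0.22 (adjusted p = 0.0464), and by 0.51 without both arrays highest in neutrophil markers. Ticam1, the adaptor TRIF that Tlr3 uses, was higher by 0.73 ± 0.21 (adjusted p = 0.0455) and is named after its values were seen. Irak2 kept its call only without pre-CD8 DC array 2, and Ticam1 only without pre-CD8 DC array 1 or Zeb2low array 1, with adjusted p up to 0.24 and 0.225 when any other array was left out.

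Of 10 transcription factors at the end of the pathway, 3 were higher (6.51% of all genes) and 0 lower (11.1%) in pre-CD8 DCs than in Zeb2hi CDPs (median 0.84). Irf7, which drives type I interferon genes, had a log2 signal of 8.35 and 7.63 in pre-CD8 DCs, against 6.24, 6.92 and 6.96 in Zeb2low CDPs and 5.4, 5.56 and 5.63 in Zeb2hi CDPs. Its arrays separated the 3 groups without overlap. Irf7 was higher by 2.46 ± 0.28 in pre-CD8 DCs against Zeb2hi CDPs (adjusted p = 0.00107). It was the 1 factor called in Zeb2low against Zeb2hi CDPs (1.17 ± 0.25, adjusted p = 0.0176), where 4.5% of all genes were higher, 0 factors and 10.3% of all genes were lower (limma, 3 higher and 0 lower at an unadjusted p under 0.05) and the median was 0.03, and that call was lost without Zeb2low array 2 (0.0563) or 3 (0.0604) or Zeb2hi array 2 (0.0693) or 3 (0.0607). Under the block in the CDP arrays alone 3 factors were higher and 0 lower.

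Irf5, which acts with Myd88, was higher by 1.95 ± 0.31 in pre-CD8 DCs than in Zeb2hi CDPs (adjusted p = 0.00466). Relb, a subunit of NF-κB, was higher by 0.77 ± 0.18 (adjusted p = 0.0214), and was lost without pre-CD8 DC array 1 (0.0734) or 2 (0.075) or Zeb2hi array 1 (0.0517) or 2 (0.0777). In pre-CD8 DCs against Zeb2low CDPs 0 of 10 factors were called (0.337% of all genes higher and 0.217% lower; limma, 5 higher and 0 lower at an unadjusted p under 0.05; median 0.53). The smallest p there was that of Irf7, at 1.28 ± 0.28 (adjusted p = 0.0958).

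Of 14 inhibitors of the pathway, 1 was lower (10.3% of all genes) and 0 higher (4.5%) in Zeb2low than in Zeb2hi CDPs (limma, 4 lower and 0 higher at an unadjusted p under 0.05; median 0.06), and 4 were lower and 1 higher under the block in the CDP arrays alone. The 1 lower was Otulin, a deubiquitinase of linear ubiquitin chains, at -1.35 ± 0.25 (adjusted p = 0.0118, and 0.0509 without Zeb2hi array 2). In pre-CD8 DCs 0 were called against Zeb2hi CDPs (6.51% of all genes higher and 11.1% lower; limma, 5 and 1 at an unadjusted p under 0.05; median 0.39) or against Zeb2low CDPs (0.337% and 0.217%; 3 and 0 at an unadjusted p under 0.05; median 0.44).

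Of 13 other sensors of nucleic acids tested, 4 were higher (6.51% of all genes) in pre-CD8 DCs than in Zeb2hi CDPs (median 0.46), 1 (4.5%) in Zeb2low than in Zeb2hi CDPs (median -0.04) and 0 (0.337%) in pre-CD8 DCs than in Zeb2low CDPs (limma, 5 higher and 0 lower at an unadjusted p under 0.05; median 0.40). In the same comparisons 0, 0 and 0 were lower (11.1%, 10.3% and 0.217% of all genes; limma, 2, 1 and 0 at an unadjusted p under 0.05). Under the block in the CDP arrays alone 2 were higher and 3 lower in Zeb2low than in Zeb2hi CDPs, and without both arrays highest in neutrophil markers 2 were higher in each comparison with Zeb2hi CDPs. Zbp1, a sensor of Z-form nucleic acids, had a log2 signal of 7.00 and 7.14 in pre-CD8 DCs, against 6.46, 6.31 and 6.54 in Zeb2low CDPs and 5.28, 5.33 and 5.7 in Zeb2hi CDPs. Like Tlr3, its 3 groups did not overlap. Zbp1 was higher by 1.64 ± 0.18 in pre-CD8 DCs (adjusted p = 0.000932) and by 1.0 ± 0.16 in Zeb2low CDPs (adjusted p = 0.00655), each against Zeb2hi CDPs.

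The other 3 sensors called in pre-CD8 DCs against Zeb2hi CDPs lost their call with single arrays left out. Without both arrays highest in neutrophil markers their differences were 0.95 for Ddx58, 0.57 for Pld4 and 0.75 for Trex1. Ddx58, which encodes the RNA sensor RIG-I, was higher by 1.74 ± 0.44 (adjusted p = 0.0275), and was lost without pre-CD8 DC array 1 (0.143) or Zeb2hi array 1 (0.0593), 2 (0.0705) or 3 (0.083). Pld4, an endolysosomal nuclease, was higher by 0.85 ± 0.24 (adjusted p = 0.0397), and kept its call only without pre-CD8 DC array 2 or Zeb2low array 1, with adjusted p up to 0.22 without any other array. Trex1, a DNA exonuclease, was higher by 0.83 ± 0.22 (adjusted p = 0.0348), is named after its values were seen, and was lost without pre-CD8 DC array 1 (0.148) or 2 (0.0742) or Zeb2hi array 1 (0.082), 2 (0.0702) or 3 (0.0749).

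Genes that Toll-like receptor signals induce in mature cells were also measured, without any stimulus named in the labels. Of 11 tested, 5 were higher (6.51% of all genes) and 1 lower (11.1%) in pre-CD8 DCs than in Zeb2hi CDPs (median 0.42), 3 higher (4.5%) and 0 lower (10.3%) in Zeb2low than in Zeb2hi CDPs (median 0.21), and 1 higher (0.337%) and 1 lower (0.217%) in pre-CD8 DCs than in Zeb2low CDPs (median 0.40). Without both arrays highest in neutrophil markers these counts were 2 and 1, 2 and 0, and 0 and 0, and under the block in the CDP arrays alone 5 were higher and 1 lower in Zeb2low than in Zeb2hi CDPs. Cd86, a costimulatory ligand for T cells, had a log2 signal of 7.01 and 7.24 in pre-CD8 DCs, against 5.97, 5.24 and 5.59 in Zeb2low CDPs and 4.16, 3.94 and 4.51 in Zeb2hi CDPs. Its groups did not overlap. Cd86 was higher by 2.92 ± 0.25 in pre-CD8 DCs (adjusted p = 0.000283) and by 1.40 ± 0.22 in Zeb2low CDPs (adjusted p = 0.00656), each against Zeb2hi CDPs.

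Il12a, the p35 subunit of interleukin 12, ran the other way. Il12a had a log2 signal of 4.57 and 5.53 in pre-CD8 DCs, against 6.80, 6.97 and 7.54 in Zeb2low CDPs and 7.85, 7.67 and 7.85 in Zeb2hi CDPs. Pre-CD8 DCs were lowest and Zeb2hi CDPs highest, with no overlap. Il12a differed by -2.74 ± 0.30 in pre-CD8 DCs against Zeb2hi CDPs (adjusted p = 0.00101) and by -2.05 ± 0.30 in pre-CD8 DCs against Zeb2low CDPs (adjusted p = 0.0278). Il12b, Il6, Il10 and Ifnb1 did not pass the filter.

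Cd80, a ligand related to Cd86, was higher by 1.82 ± 0.34 in pre-CD8 DCs than in Zeb2hi CDPs (adjusted p = 0.00845), and is named in that comparison after its values were seen. The remaining calls of the list depended on the arrays. In pre-CD8 DCs against Zeb2low CDPs, Cd86 (1.53 ± 0.25, adjusted p = 0.0393) kept its call only without Zeb2low array 1, and Il12a only without pre-CD8 DC array 2 or Zeb2low array 1, with adjusted p up to 0.169 and 0.147 without any other array. In Zeb2low against Zeb2hi CDPs, Cd80 (1.11 ± 0.30, adjusted p = 0.0419) kept its call only without either of the pre-CD8 DC arrays, with adjusted p up to 0.151 otherwise and 0.0596 with the replicate block over all arrays. The chemokine Ccl5 was higher by 2.00 ± 0.52 in that comparison (adjusted p = 0.0361) and kept its call without either pre-CD8 DC array or Zeb2low array 1, with adjusted p up to 0.122 otherwise and 0.0807 with that block. Without both arrays highest in neutrophil markers Ccl5 differed there by 1.56 (adjusted p = 0.0525).

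Il1b, the cytokine interleukin 1β, had a log2 signal of 10.74 and 8.77 in pre-CD8 DCs, against 6.74, 9.55 and 7.79 in Zeb2low CDPs and 4.97, 7.40 and 5.72 in Zeb2hi CDPs. It was highest in each group on the array with the highest neutrophil markers. Il1b was higher by 3.73 ± 0.94 in pre-CD8 DCs than in Zeb2hi CDPs (adjusted p = 0.0268), which was lost without pre-CD8 DC array 1 (0.167), Zeb2hi array 1 (0.0695) or 3 (0.0819), and without both arrays highest in those markers (0.0958). In the same comparison the chemokine Cxcl9 was higher by 2.27 ± 0.48 (adjusted p = 0.0145), lost without pre-CD8 DC array 1 (0.0614) or Zeb2hi array 3 (0.0527) and, at 1.38, without both arrays highest in neutrophil markers (adjusted p = 0.0812). Ccl5, named there after its values were seen, was higher by 2.01 ± 0.59 (adjusted p = 0.0458), and by 1.28 without both arrays highest in neutrophil markers. Ccl5 kept that call only without pre-CD8 DC array 2 or Zeb2low array 1 or 2, with adjusted p up to 0.26 otherwise.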

How the data were processed

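Gene expression was measured on Affymetrix arrays from small amounts of RNA, amplified by a whole-transcriptome kit, in 8 samples grouped by their titles. Whether arrays of a group come from separate mice or sorts is not in the labels, and p-values therefore reflect only how these samples vary, which could be technical variation. The deposited values are linear intensity per probe set, which per the submitters' processing notes the authors made with RMA and Affymetrix Expression Console; the sources used here do not give versions. RMA gives no detection call, and the number of arrays limits the precision.

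Of 28853 probe sets 21789 name 1 gene, 1621 several and 5443 none, and only the first were used. Intensities were log2 transformed and not normalized again. Genes with at least 2 arrays above their own 40th percentile were kept, with the probe set of highest mean per gene. All 8 arrays entered 1 limma 3.58.1 fit (lmFit and eBayes, two-sided, R 4.3.3), with Benjamini-Hochberg adjustment over all 13356 genes in each comparison at 0.05. In the text, adjusted p is that value, and ± with a difference is the standard error. The fit was tested on simulated data.

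The genes, lists and alternatives were chosen with earlier results of these data known. Named were all 10 genes in each comparison, up to 3 genes per pathway list and direction with the largest differences past the test (or the 1 with the smallest p), and the 5 genes most like each of the 2 receptors with the widest range of group means. Others are named as such. Lists are described by counts and medians without a test of the list. Promoters came from RefSeq (GRCm38.p6); no coordinates of probe sets were used.

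Same-numbered Zeb2low and Zeb2hi arrays departed from their group's mean in the same direction (r over genes of 0.478, 0.407 and 0.308). The fits with a replicate block therefore took the numbers to pair them, while the main fit has no block and ignores any pairing. The pairing comes from these values, not the labels, and the p-values of the block in the CDP arrays do not allow for that choice. Pre-CD8 DC arrays have 2 numbers and were not paired: array 1 deviated against Zeb2low array 1 (r = -0.401) and with Zeb2low array 2 (0.587). The block over all arrays still uses their numbers, so it is no paired result for comparisons with pre-CD8 DCs. Its values for single genes are given only for Zeb2low against Zeb2hi CDPs, beside the block in the 6 CDP arrays alone. For comparisons with pre-CD8 DCs only its counts of calls are given. Alternatives were other filters (none, and the 60th percentile), quantile normalization, centring, mean of probe sets, array weights, another variance prior, 2 groups only, a pseudocount of 16, each array left out, and the replicate block. Leaving out both arrays highest in neutrophil markers was added after seeing the data.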

Additional observations from a re-analysis of the deposited data

How the results depend on the processing

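For the receptors and Unc93b1, 27 results were recomputed in 522 values. Tlr3 in all 3 comparisons, Tlr12 and Tlr4 in pre-CD8 DCs against Zeb2hi CDPs, Tlr9 in that comparison and Tlr12 in Zeb2low against Zeb2hi CDPs passed under every alternative run. Tlr3 ranged from 4.30 to 5.33 in pre-CD8 DCs against Zeb2hi CDPs, from 2.36 to 3.28 in Zeb2low against Zeb2hi CDPs and from 1.94 to 2.15 in pre-CD8 DCs against Zeb2low CDPs. Over these and the pathway genes, 117 results had 2253 alternative values, of which 184 lost and 37 gained the threshold, and no called difference changed sign. With an array left out, receptors and Unc93b1 called higher numbered 4 to 7 in pre-CD8 DCs against Zeb2hi CDPs, 2 to 3 in Zeb2low against Zeb2hi CDPs and 1 to 2 in pre-CD8 DCs against Zeb2low CDPs, and those lower 0 to 0, 0 to 1 and 0 to 0. Over all genes the left-out counts were 463 to 1046 higher and 709 to 1729 lower, 163 to 750 and 358 to 1474, and 17 to 88 and 4 to 59, in the same order. Where a pre-CD8 DC array was left out, the lone array was assumed to vary like the other groups. Zeb2low against Zeb2hi CDPs had 601 genes higher and 1377 lower, and pre-CD8 DCs against Zeb2hi CDPs 869 and 1483. In Zeb2low against Zeb2hi CDPs, centring on array medians gave 371 and 2233 and moved the median of all genes by -0.163, and array weights gave 1798 and 2669, with 1 of the 9 genes, Unc93b1, lower. The share of higher calls was 30.4% there, against 14.2% with centring and 40.9% with quantile normalization. Pre-CD8 DCs against Zeb2low CDPs had 45 genes higher and 29 lower (60.8% higher, and 72.3% with centring), and 13 and 3 with those 2 groups alone. Without the 2 arrays highest in neutrophil markers it had 9 and 3, and pre-CD8 DCs against Zeb2hi CDPs had 463 and 732. The replicate block over all arrays gave 10 and 5 in pre-CD8 DCs against Zeb2low CDPs and changed no call of a receptor or of Unc93b1. Of the named pathway genes it lost 12 calls and gained 1 in comparisons with pre-CD8 DCs, where the numbers do not pair the arrays, and lost 4 in Zeb2low against Zeb2hi CDPs. The block in the 6 CDP arrays alone gave 1536 and 2534 genes in Zeb2low against Zeb2hi CDPs, with 5 of the 9 genes higher and 1 lower. The cause of these changes was not tested. Differences that rest on signals under the level of the filter, as Tlr3 in Zeb2hi CDPs, may be compressed.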
